A study of Solanum lycopersicum with 6 samples.

Results

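The genes described here encode the enzymes of the mannose-galactose route, by which plants make ascorbate (vitamin C). They were taken from a list of 10 tomato (Solanum lycopersicum) gene identifiers and looked up in a deposited expression table of 40229 gene models. All 10 were found, and 9 were kept: GMP3, GME1, GME2, GGP1, GGP2, GPP1, GPP2, GalDH and GalLDH. The remaining gene, Solyc03g096730, was listed as GMP2 but carries the description of a pollen-specific kinase partner protein, which contradicts that name, so it was left out and is described separately. Whether the listed name or the description is right was not tested. The samples were 3 RNA-seq libraries of fruit labelled as SlLBD40 knockout and 3 of wild-type fruit of the dwarf cultivar Micro-Tom, all labelled with 25 days after anthesis. SlLBD40 is a LATERAL ORGAN BOUNDARIES domain transcription factor. The labels name no agent or further allele, and do not say how the gene was knocked out, how many lines or plants gave the fruit, or whether fruit were pooled. P-values therefore measure the spread between libraries.

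In this route mannose is activated as GDP-mannose, turned into GDP-L-galactose, and released step by step as L-galactose, which is oxidised to L-galactono-lactone and then to ascorbate. GDP-L-galactose phosphorylase (GGP) makes the first product used for ascorbate alone, and is regarded as the main control point of the route in plants. The earlier intermediates also feed protein glycosylation and cell wall polysaccharides. Ascorbate is the main water-soluble antioxidant of fruit and is kept in its reduced form by a separate set of recycling enzymes.

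The level of a gene is given in TPM, transcript abundance scaled to the same total in each library, which allows for gene length, so that genes can be compared within a library. The 5 fruit marker genes had a summed level of 866 to 1789 TPM in knockout libraries and 685 to 1458 TPM in wild-type libraries, and 0 of them were listed at 0 in any library. The fruit MADS-box genes TAGL1, FUL1 and FUL2 overlapped between genotypes, with log2 fold changes of −0.31, 0.35 and −0.20. The other markers were RIN and NOR, a MADS-box and a NAC factor needed for ripening. RIN stood at 27.3, 20.9 and 112.7 TPM in knockout 1 to 3, and at 1.53, 19.7 and 8.14 TPM in wild type 1 to 3. NOR stood at 80.4, 54.0 and 402 TPM in the knockout and at 3.29, 28.9 and 29.0 TPM in wild type. For both, each knockout library lay above each wild-type library, but neither passed the test over all genes (limma adjusted p = 0.228 and 0.190). Of all genes tested, 8.26% were separated in that direction. For RIN the gap was narrow, between knockout 2 at 20.9 TPM and wild type 2 at 19.7 TPM. The summed level of 183 green tissue marker genes (chlorophyll-binding and photosystem proteins) was 8321 to 12115 TPM in knockout libraries and 3875 to 8174 TPM in wild-type libraries, with 95 to 102 of the genes listed at 0 in a library. These sums did not overlap, by a narrow gap. Of 67 green tissue markers tested, 54 had a higher and 13 a lower mean in the knockout, where 56.5% of all genes tested were lower. Their median log2 fold change was 0.69. The groups did not overlap for 27, all higher in the knockout (8.26% of all genes tested), and 0 passed the test over all genes. The summed level of 106 seed marker genes was 5166, 604 and 2228 TPM in knockout 1 to 3 and 14255, 1427 and 1822 TPM in wild type 1 to 3, with 58 to 69 listed at 0. Knockout 1 and wild type 1 were thus the libraries richest in seed transcripts of their genotypes. Solyc02g085910, taken from memory as SlLBD40, stood at 0.77, 2.51 and 3.85 TPM in the knockout and at 1.57, 5.35 and 1.90 TPM in wild type, so its transcript level does not check the labels. Titles of knockout and wild-type samples open with different letters. An ending of L and a number in a sample description was taken as a sequencing lane. Samples without such an ending were not counted, and 0 lanes read in this way held both genotypes. Genotype cannot be told apart from what these letters and endings mark.

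All 9 genes were read in all 6 libraries and passed the filter on low values (at least 1 TPM in at least 3 libraries), at levels that spanned 20.2-fold to 36.1-fold between the highest and the lowest gene of a library. GGP1 was the highest in every library, with a mean of 399 TPM (SD 87.6, n = 6), above 98.3% of all genes tested. Its lowest library, at 275 TPM, lay above the highest value of GMP3, the next gene, at 134 TPM. GalLDH, which catalyses the last step, was the lowest in every library, with a mean of 15.3 TPM (SD 4.51, n = 6), above 49.7% of genes tested. Between these ends the order of the means was GMP3 (92.3 TPM), GPP2 (70.7 TPM), GME2 (67.9 TPM), GGP2 (60.7 TPM), GalDH (47.8 TPM), GME1 (40.7 TPM) and GPP1 (25.7 TPM). The ranges of all neighbours in this middle part overlapped, and GPP2 was above GME2 in only 3 of the 6 libraries. As deposited, GalDH varied least over the 6 libraries, with a highest value 1.44 times the lowest. GPP2 varied most, by 3.005 times, close to GMP3 (2.988) and GME1 (2.983). Both rankings depend on how libraries are scaled. After median-ratio scaling, described with GGP1, GalDH ran from 37.0 to 59.4 TPM and GGP1 from 336 to 452 TPM. GME1 then ran from 23.9 to 87.2 TPM and GPP2 from 35.8 to 119.6 TPM. The route was thus transcribed unevenly: the GGP step took 53.8% to 58.6% of the summed TPM of the 9 genes in the knockout and 50.9% to 63.7% in wild type, while GalLDH took 1.21% to 2.40% in the knockout and 1.51% to 2.09% in wild type.

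**Figure D1:**
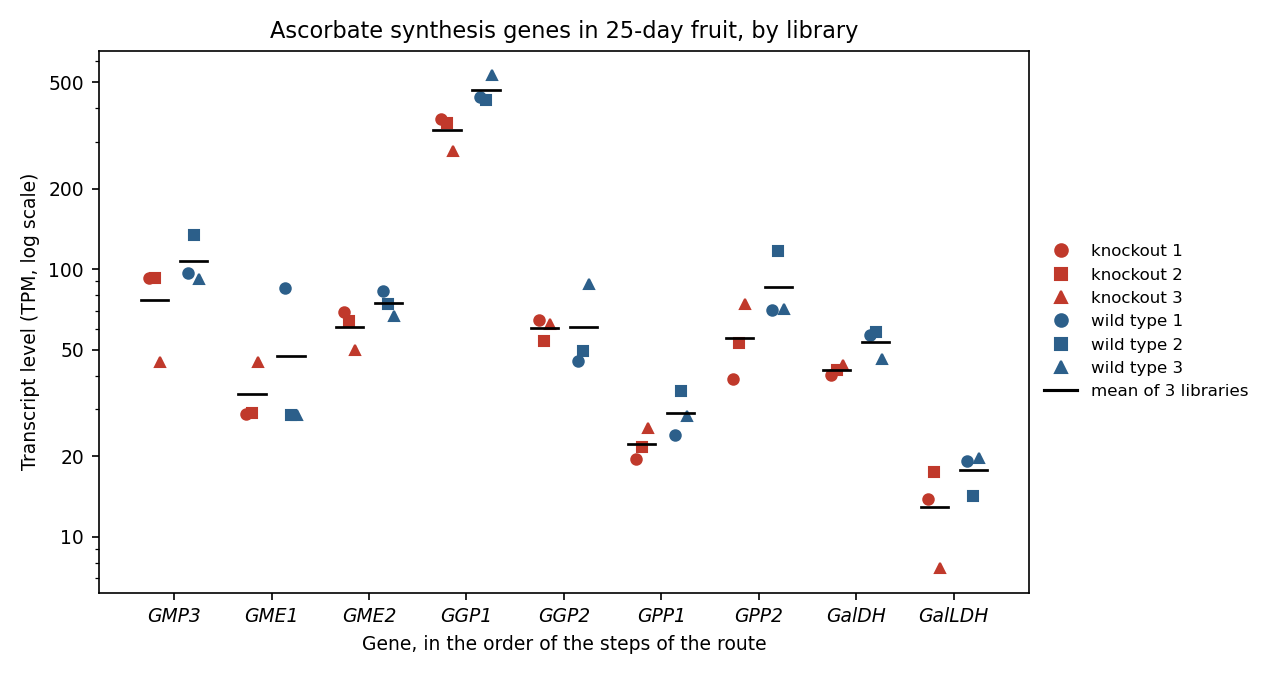
Transcript level (TPM, log scale) of the 9 ascorbate synthesis genes, in the order of the steps, with 1 point per library (knockout red, wild type blue) and a line at the mean of 3 libraries. GGP1 lies above every other gene in all libraries, and the knockout points lie below all wild-type points for GGP1 and GalDH alone.

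The comparison of genotypes asked whether fruit labelled as SlLBD40 knockout differed from wild-type fruit in transcripts of this route. No gene of the route passed the test: 0 of 9 had a limma adjusted p under 0.05, where 0.0926% of 18368 genes did, and 0 had an unadjusted p under 0.05, where 17.5% did. The mean on the log2(TPM + 1) scale was lower in the knockout for 8 of the 9 genes, against 56.5% of all genes tested, and GGP2 was the exception. Their median log2 fold change was −0.37, against −0.09 over all genes tested. The summed level of the 9 genes was 732, 727 and 628 TPM in knockout 1 to 3 and 920, 940 and 971 TPM in wild type 1 to 3. The sums did not overlap, with a ratio of 0.737 between the group means, and GGP1 made up the greater part of the difference in TPM. After median-ratio scaling, described with GGP1, the ratio was 0.800, and knockout 3 (799.5 TPM) lay just below wild type 3 (815 TPM). As deposited, the libraries of the 2 genotypes did not overlap for 2 of the 9 genes, GGP1 and GalDH, both lower in the knockout. Over all genes tested, 16.1% were separated in that direction. In the other direction 0 of the 9 were separated, against 8.26% of all genes tested. In bulk fruit RNA, fewer cells of a type and less RNA per cell cannot be told apart.

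**Figure D2:**
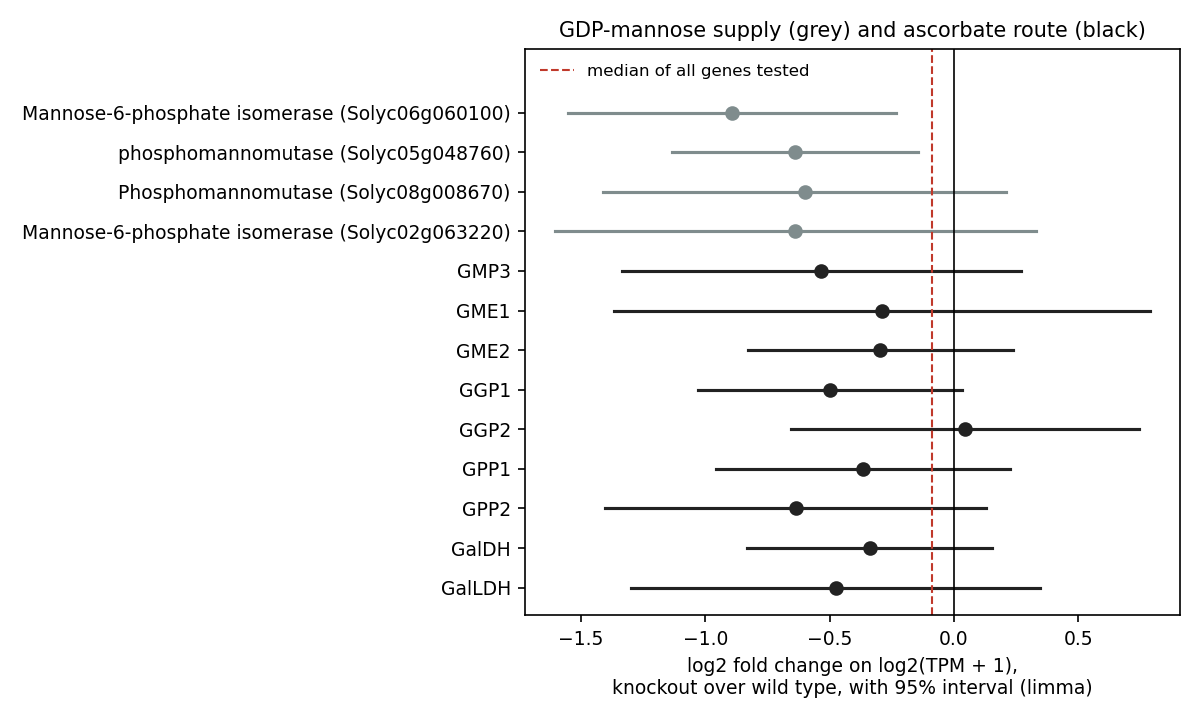
Log2 fold change on the log2(TPM + 1) scale, knockout over wild type, with its 95% limma interval, for the 4 tested genes of GDP-mannose supply (grey) and the 9 route genes (black). The dashed line marks the median of all genes tested, −0.09; the interval of every route gene includes 0.

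GMP3 (Solyc06g051270) was taken as a GDP-mannose pyrophosphorylase, the enzyme that joins mannose-1-phosphate to GTP to form GDP-mannose. The table describes it only as a member of the glucose-1-phosphate adenylyltransferase family, a wider family of nucleotidyltransferases, which does not contradict the name. It stood at 92.8, 93.0 and 45.0 TPM in knockout 1 to 3 and at 97.0, 134 and 91.8 TPM in wild type 1 to 3. Knockout 3 stood apart from the other 2 knockout libraries, which reached the wild-type range. The log2 fold change was −0.53 (SE 0.34, 95% interval −1.34 to 0.27, limma adjusted p = 0.473), and it was −0.19 without knockout 3.

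GME1 (Solyc01g097340) and GME2 (Solyc09g082990) encode GDP-mannose epimerases, which turn GDP-mannose into GDP-L-galactose, a precursor of ascorbate and of cell wall polysaccharides. GME1 stood at 28.7, 28.9 and 45.0 TPM in the knockout and at 84.8, 28.6 and 28.4 TPM in wild type. Apart from knockout 3 and wild type 1, its libraries lay within 28.4 to 28.9 TPM. Wild type 1 had the highest summed seed marker level (14255 TPM), knockout 1 the next (5166 TPM) and knockout 3 the third (2228 TPM). By the mean log2(TPM + 1) level of the tested seed markers, wild type 1 (5.64) and knockout 1 (4.81) again led. Knockout 3 was the lowest of the 6 libraries by that measure (2.34). The part of seed content in the GME1 values was not tested. Its log2 fold change was −0.29 (SE 0.46, limma adjusted p = 0.803). It turned to 0.22 when wild type 1 was left out, and to 0.33 when knockout 1 was left out as well, so its direction rests on single libraries. GME2 stood at 69.3, 64.2 and 49.7 TPM in the knockout and at 83.1, 74.2 and 67.0 TPM in wild type. Its genotypes overlapped only in that knockout 1 lay above wild type 3, and its log2 fold change was −0.30 (SE 0.23, 95% interval −0.83 to 0.24, limma adjusted p = 0.556). It was −0.16 without knockout 3 and −0.18 after median-ratio scaling of the libraries, a scaling described with GGP1. The 2 genes carry the same description, and how reads shared by such copies were assigned is not given in the sources used here.

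GGP1 (Solyc06g073320) and GGP2 (Solyc02g091510) encode GDP-L-galactose phosphorylases, which release L-galactose-1-phosphate. GGP1 stood at 364, 352 and 275 TPM in the knockout and at 439.7, 429.6 and 530.05 TPM in wild type. Every knockout library lay below every wild-type library, and the means were 331 ± 48.3 and 466 ± 55.3 TPM (SD, n = 3 each). The log2 fold change was −0.50 (SE 0.23, 95% interval −1.03 to 0.03), with a limma unadjusted p of 0.0616 and an adjusted p of 0.312, the lowest among the 9 genes. GGP2 stood at 64.6, 54.1 and 62.3 TPM in the knockout and at 45.5, 49.3 and 88.4 TPM in wild type. Wild type 3 was its highest library and wild type 1 its lowest, so that the knockout lay inside the wild-type range, and the difference on the log2 scale was 0.04 (SE 0.30, 95% interval −0.66 to 0.74, limma adjusted p = 0.963).

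The spread of GGP1 within a genotype depended on how libraries were scaled. In median-ratio scaling each library is divided by the median ratio of its genes to their average over libraries; the divisors ran from 0.786 for knockout 3 to 1.19 for wild type 3. After it GGP1 stood at 336, 341 and 350.5 TPM in knockout 1 to 3 and at 452, 439.7 and 445 TPM in wild type 1 to 3. The within-genotype SD became 7.44 TPM in the knockout and 6.29 TPM in wild type, around means of 343 and 446 TPM. The log2 fold change was then −0.38 (SE 0.21, limma adjusted p = 0.386). Limma draws the estimated spread of a gene towards that of genes of like level. With this scaling the median over all genes tested shifted by 0.10 on the log2 scale, to 0.02, and that of the route became −0.25. The difference between the route's median and that of all genes was −0.28 as deposited and −0.26 after scaling. GalDH, separated as deposited, overlapped after scaling, which left GGP1 as 1 of 9 genes separated, against 12.9% of genes tested in that direction.

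**Figure D3:**
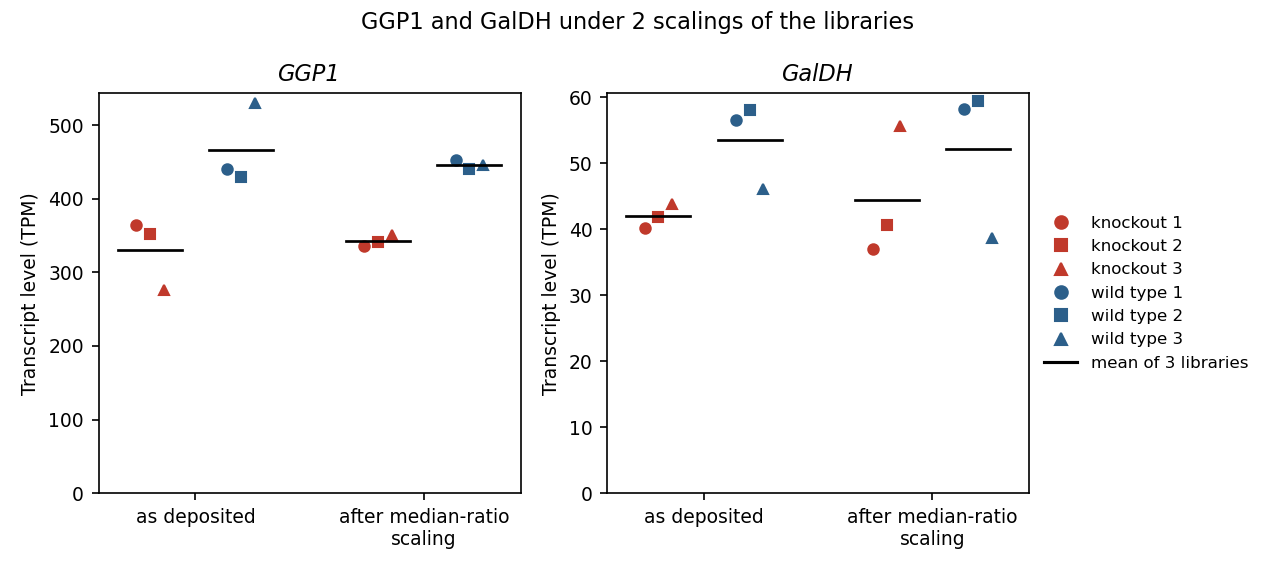
Transcript level (TPM) of GGP1 and GalDH in each library, as deposited and after median-ratio scaling, with lines at the means of 3 libraries. After scaling the GGP1 points close up within each genotype (336 to 350.5 TPM in knockout, 439.7 to 452 TPM in wild type), while those of GalDH spread and overlap.

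GPP1 (Solyc04g014800) and GPP2 (Solyc11g012410) were taken as L-galactose-1-phosphate phosphatases, which free L-galactose. The table describes them as myo-inositol monophosphatases, and plant enzymes of that family are known to act on both substrates. GPP1 stood at 19.5, 21.7 and 25.5 TPM in the knockout and at 24.0, 35.1 and 28.2 TPM in wild type. GPP2 stood at 38.9, 53.0 and 74.0 TPM in the knockout and at 70.2, 116.9 and 71.3 TPM in wild type. In both genes knockout 3 was the 1 knockout library within the wild-type range, and wild type 2 was the highest library. The log2 fold change of GPP2, −0.64, was the largest among the 9 genes (SE 0.33, 95% interval −1.40 to 0.13, limma adjusted p = 0.366). It was −0.40 without wild type 2 and −0.87 without knockout 3. For GPP1 it was −0.37 (SE 0.25, limma adjusted p = 0.506), and −0.23 without wild type 2.

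GalDH (Solyc01g106450) encodes L-galactose dehydrogenase, the soluble enzyme that makes L-galactono-lactone. It stood at 40.2, 41.9 and 43.8 TPM in the knockout and at 56.6, 58.1 and 46.1 TPM in wild type. The knockout libraries were close together and all lay below wild type 3, the lowest of the wild-type libraries. The means were 42.0 ± 1.78 and 53.6 ± 6.50 TPM (SD, n = 3 each), and the log2 fold change was −0.34 (SE 0.21, 95% interval −0.83 to 0.15, limma adjusted p = 0.454). GalLDH (Solyc10g079470) encodes the dehydrogenase of the inner mitochondrial membrane that forms ascorbate and passes electrons to cytochrome c. It stood at 13.8, 17.5 and 7.63 TPM in the knockout and at 19.2, 14.2 and 19.7 TPM in wild type. The groups overlapped through knockout 2 and wild type 2, and the log2 fold change of −0.48 (SE 0.35, limma adjusted p = 0.537) became −0.16 without knockout 3.

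As deposited, knockout 3 was the lowest of all 6 libraries for GMP3, GME2, GGP1 and GalLDH, 4 of the 9 genes. It was the highest of the knockout libraries for GME1, GPP1, GPP2 and GalDH. Knockout 3 also had the smallest divisor in median-ratio scaling (0.786). After that scaling it stayed the lowest library for GMP3 (57.2 TPM) and GalLDH (9.71 TPM). For GGP1 (350.5 TPM) it was then the highest knockout library, and for GME2 (63.3 TPM) it lay above knockout 2 (62.2 TPM). The same library had the highest RIN and NOR levels of the 6 and the fewest genes at 1 TPM or more (17352, against up to 18693 in wild type 3). Knockout 1 was the lowest library for GPP1, GPP2 and GalDH. The part of RIN, NOR and green tissue marker levels in the values of the route was not tested. Without knockout 1 and wild type 1, the libraries richest in seed markers, the median of the route was −0.41 and that of all genes tested −0.22. The difference between these medians was −0.19, against −0.28 with all libraries. In that setting 0 of the 9 genes passed, as did 0 of all 18368 genes tested.

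For the steps with a pair of genes kept, the share of the pair held by 1 gene does not depend on the scaling of a library. GGP1 held 84.9%, 86.7% and 81.6% of the GGP transcripts in knockout 1 to 3 and 90.6%, 89.7% and 85.7% in wild type 1 to 3. The shares overlapped through knockout 2 and wild type 3, with means of 84.4 ± 2.61% and 88.7 ± 2.61% (SD, n = 3 each; difference −4.28 percentage points, two-sided exact permutation test, p = 0.2, adjusted p = 0.3 over 3 pairs). GPP1 held 29.4 ± 3.90% of the GPP transcripts in the knockout and 25.6 ± 2.65% in wild type (SD, n = 3 each; difference 3.71 percentage points, exact p = 0.2, adjusted p = 0.3). This difference was 1.69 points without knockout 1, 5.58 without knockout 3 and 2.44 without wild type 2. It was 1.59 points with both seed-rich libraries left out. GME1 held 29.3%, 31.0% and 47.5% of the GME transcripts in the knockout and 50.5%, 27.8% and 29.8% in wild type. In knockout 3 and wild type 1 the GME pair was close to balance, while in the other libraries GME1 held 27.8% to 31.0%. The group means were 36.0 ± 10.1% in the knockout and 36.0 ± 12.6% in wild type (SD, n = 3 each; exact p = 1). With 3 libraries a genotype, the smallest p such an exact test allows is 0.1.

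**Figure D4:**
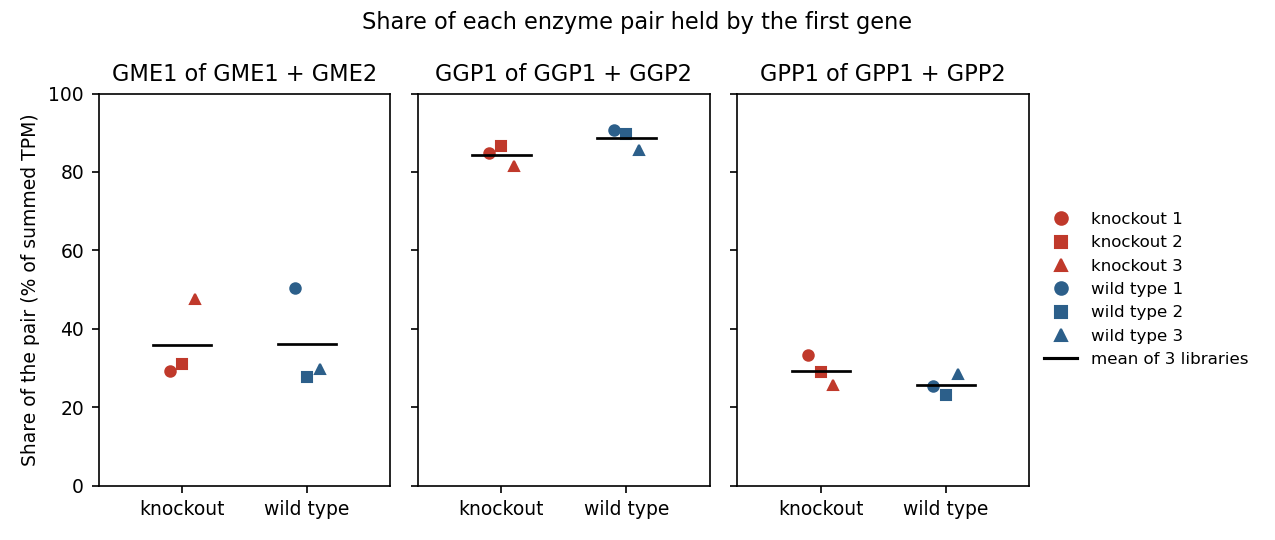
Share of the summed TPM of each enzyme pair held by the first gene, in percent, with 1 point per library and a line at the mean of 3 libraries. GGP1 holds 81.6% or more of its pair in every library, GPP2 the greater part of the GPP pair, and GME1 reaches about equal shares only in knockout 3 and wild type 1.

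Solyc03g096730, the gene left out, differed more between the genotypes than the 9 genes kept. It stood at 57.1, 62.1 and 35.03 TPM in the knockout and at 231, 93.3 and 106 TPM in wild type. All knockout libraries lay below all wild-type libraries, and the difference on the log2 scale was −1.38 (SE 0.40, 95% interval −2.33 to −0.44, limma unadjusted p = 0.0105, adjusted p = 0.153), which does not pass. Without wild type 1, its highest library and the one richest in seed markers, the log2 fold change was −0.98. With it kept as a member the median of the route was −0.42, and 1 of 10 genes had an unadjusted p under 0.05, against 11.3% of all genes tested in that direction.

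Genes around the route were taken from 4 lists matched on descriptions, and 0 genes of any of them passed the limma test over all genes. The list for supply of GDP-mannose held 10 genes described as mannose-6-phosphate isomerase, phosphomannomutase or GDP-mannose pyrophosphorylase. Of these, 4 were expressed highly enough to test, all of them isomerase or phosphomannomutase genes. The mean was lower in the knockout for 4 of these 4, with a median log2 fold change of −0.64, 2 had an unadjusted p under 0.05 (11.3% of all genes tested in that direction), and the libraries of 3 did not overlap (16.1% of all genes). After median-ratio scaling 1 of the 4 had an unadjusted p under 0.05 and 1 did not overlap (12.9% of all genes), with a median of −0.53. With knockout 2 left out, or both seed-rich libraries, 0 had an unadjusted p under 0.05, and without knockout 1 or wild type 2 it was 1. The main phosphomannomutase gene (Solyc05g048760), whose product converts mannose-6-phosphate to mannose-1-phosphate, stood at 51.0, 50.2 and 62.8 TPM in the knockout and at 79.0, 94.1 and 83.5 TPM in wild type (log2 fold change −0.64, limma adjusted p = 0.189). The mannose-6-phosphate isomerase gene Solyc06g060100, whose product takes fructose-6-phosphate into the route, stood at 6.12, 5.35 and 8.40 TPM in the knockout and at 13.2, 11.5 and 14.4 TPM in wild type (log2 fold change −0.89, limma adjusted p = 0.175). As deposited, both were lower in every knockout library than in any wild-type library. After scaling this held for Solyc06g060100, while Solyc05g048760 overlapped, with knockout 3 at 80.0 TPM and wild type 3 at 70.1 TPM (limma adjusted p = 0.361). The log2 fold changes of the phosphomannomutase Solyc08g008670 and the isomerase Solyc02g063220 were −0.60 and −0.64 (limma adjusted p = 0.423 and 0.476). Wild type 1 was the highest library for both, and without it their log2 fold changes were −0.30 and −0.34, while those of the other 2 were −0.69 and −0.88. Solyc03g120650, the 1 gene described as a GDP-mannose pyrophosphorylase, reached at most 0.23 TPM and was not tested.

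Other users of GDP-mannose, which lead to fucose and to glycans of the Golgi, had 5 of 10 genes tested, 4 of them with a lower mean in the knockout and a median log2 fold change of −0.30. The GDP-L-fucose synthase gene Solyc07g006070 stood at 42.4, 35.9 and 43.6 TPM in the knockout and at 49.2, 47.0 and 54.2 TPM in wild type (log2 fold change −0.30, limma adjusted p = 0.518). As deposited, the groups did not overlap for it, nor for the transporter gene GONST3 (Solyc06g071950). GONST3 stood at 2.84 to 3.29 TPM in the knockout and 4.40 to 4.78 TPM in wild type (limma adjusted p = 0.415). These were 2 of the 5 genes tested, where 16.1% of all genes tested were separated in that direction. The transporter gene GONST4 (Solyc09g065600) had a log2 fold change of −0.92 with overlapping groups (adjusted p = 0.252). Other routes to ascorbate, through myo-inositol oxygenase or gulonolactone oxidase, had 4 of 7 genes tested and reached at most 19.9 TPM in any library. Of these, the gulonolactone oxidases Solyc08g068420 and Solyc09g005180 had log2 fold changes of 0.97 and −0.96, and the inositol oxygenases Solyc06g062430 and Solyc11g006570 of −0.92 and 0.58. Their limma adjusted p ran from 0.377 to 0.494, and 2 means were higher and 2 lower.

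Recycling and use of ascorbate had 20 of 39 genes tested, with 9 means higher and 11 lower in the knockout and a median log2 fold change of −0.16. At an unadjusted p under 0.05, 1 was higher and 4 lower (background 6.24% and 11.3%). Of 8 tested ascorbate peroxidases, which use ascorbate to remove hydrogen peroxide, 5 had a higher and 3 a lower mean in the knockout, and 1 of the higher and 2 of the lower had an unadjusted p under 0.05. The ascorbate peroxidase gene Solyc01g111510 stood at 434, 337 and 379 TPM in the knockout and at 214, 236 and 209 TPM in wild type (log2 fold change 0.79, limma adjusted p = 0.134). The ascorbate peroxidase gene Solyc06g005150 stood at 111, 125 and 95.8 TPM in the knockout and at 188, 192 and 188 TPM in wild type (log2 fold change −0.78, adjusted p = 0.132). The cytosolic ascorbate peroxidase gene Solyc06g005160, named after its values were seen, stood at 399, 463 and 412 TPM in the knockout and at 758, 536 and 642 TPM in wild type (log2 fold change −0.59, adjusted p = 0.245). The stromal gene Solyc06g060260, also named after its values were seen, had a log2 fold change of 0.03. An ascorbate oxidase-like gene, Solyc07g052230, stood at 1.16, 3.65 and 0.28 TPM in the knockout and at 48.8, 5.70 and 15.0 TPM in wild type (log2 fold change −2.90, adjusted p = 0.141), with the highest value in wild type 1.

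**Figure D5:**
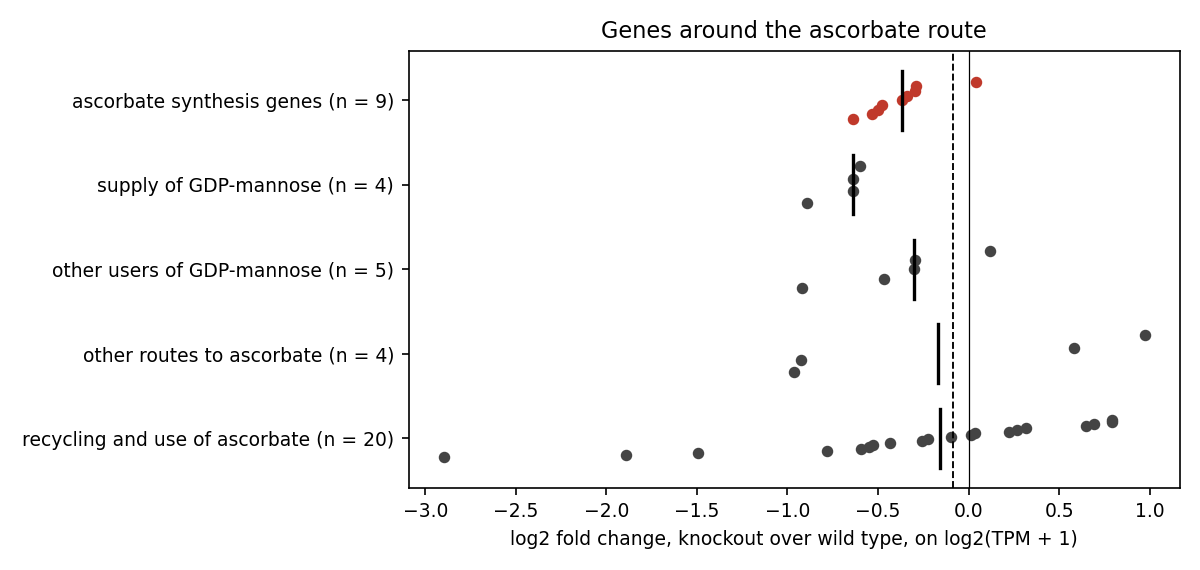
Log2 fold change on the log2(TPM + 1) scale, knockout over wild type, of the 9 route genes (red) and of the tested genes of 4 lists around the route (grey), 1 point per gene, with a bar at the median of each list and a dashed line at the median of all genes tested, −0.09. All 4 genes of GDP-mannose supply and 8 of the 9 route genes lie below 0, while genes of recycling and use of ascorbate lie on both sides.

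Likeness to GGP1 was measured as the mean absolute difference, over the 6 libraries, of log2(TPM + 1) values centred on each gene's mean. The 3 nearest described genes were cyclinB3_1 (Solyc07g066660) at 0.022, the crossover junction endonuclease gene MUS81 (Solyc01g068340) at 0.026 and an RBR-type E3 ubiquitin transferase gene (Solyc02g069230) at 0.028. MUS81 stood at only 0.50 to 1.83 TPM, with means of 0.797 TPM in the knockout and 1.54 TPM in wild type. At such levels log2(TPM + 1) understates changes, so its small distance does not mean a like fold change. The E3 ubiquitin transferase gene stood at 21.8, 21.3 and 17.9 TPM in the knockout and at 27.4, 26.8 and 33.4 TPM in wild type. This was the order of libraries seen for GGP1 as deposited. Likeness was measured on values as deposited only. After median-ratio scaling the order for GGP1 changed, to 336, 341 and 350.5 TPM in knockout 1 to 3 and 452, 439.7 and 445 TPM in wild type 1 to 3. Likeness after scaling was not tested, so the part of library scaling in these distances is unknown. Within the route GME2 was the nearest to GGP1, at 0.148, with 4.60% of genes tested nearer, and GME1 the farthest, at 0.592, with 75.8% nearer. GGP2, the other gene of the same step, lay at 0.314, with 35.4% of genes nearer.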

How the data were processed

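Gene levels were read from 1 table deposited by the authors. No unit stands in its header. Because the columns sum to between 987932 and 994646, the values were treated as TPM made by the authors. TopHat2, HISAT2, StringTie and Cufflinks are named in the submitters' processing notes, with neither versions nor roles, and no genome build or annotation is named there. Depth cannot be recovered from TPM, so no counting interval was computed. Columns name a genotype and run from 1 to 3 within it, while the numbers in the sample titles do not; 1 column has the name of a sample title, but since it may be only the second of 3, columns were assigned to genotypes only.

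The filter (1 TPM or more in 3 or more libraries) left 18368 genes. Knockout was compared with wild type on log2(TPM + 1), which understates changes of low genes, using limma 3.58.1 (R 4.3.3) and its mean-variance trend. P-values were adjusted by Benjamini-Hochberg over all of these genes, with a threshold of 0.05. The script was tested on simulated data. Shares of pairs were compared by exact permutation; the planned GMP pair was not formed, since 1 of its genes was left out. Alternatives were median-ratio scaling, filters at 5 TPM and at none, a pseudocount of 0.1, the robust option of limma, the mean seed marker level as a covariate, and leaving out libraries singly or both seed-rich ones (knockout 1 and wild type 1). All members were named, with the 3 genes of lowest p in each list (all, where up to 4 were tested) and the 3 nearest to GGP1; Solyc03g120650 was named after its values were seen. Members and lists were chosen with earlier results of these data known. The reference gene table matched 0 of the identifiers and was not used. Figures were drawn with matplotlib 3.10.9.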

Additional observations from a re-analysis of the deposited data

How the results depend on the processing

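Over the 13 alternatives tried, 0 of the 9 genes reached an adjusted p under 0.05, the lowest being 0.218. Without knockout 3, 1 of the 9, GPP2, had a limma unadjusted p under 0.05 (0.0316), as did 3575 of all 18368 genes tested. In each other alternative 0 of the 9 did. Of the 9, 7 kept a negative log2 fold change throughout, GGP1 between −0.61 and −0.37. GME1 ran from −0.55 to 0.22 with single libraries left out (0.22 without wild type 1) and was 0.33 without both seed-rich libraries. GGP2 ran from −0.13 to 0.34 with single libraries left out (−0.0075 without knockout 1, −0.13 without wild type 1, −0.075 without wild type 2) and was −0.18 without both seed-rich libraries. The median of the 9 genes was −0.25 after median-ratio scaling and −0.41 to −0.35 with single libraries left out. Its difference from the median of all genes tested ran from −0.40 to −0.22 with single libraries left out. That difference was −0.19 without both seed-rich libraries. The difference in the GME1 share ran from −5.88 to 7.14 percentage points with single libraries left out (3.24 without knockout 1, 2.36 without knockout 2 and 7.14 without wild type 1) and was 10.5 without both seed-rich libraries, and 0.0054 as a log2 ratio. The number of genes called over the whole table, 17, was 27 after median-ratio scaling, 0 with no filter (3699 at an unadjusted p under 0.05), 0 without both seed-rich libraries (1626) and 0 to 23 with single libraries left out. It was 0 without knockout 1 or wild type 3 (2061 and 2333 by the unadjusted p), 3 without wild type 2, 9 without knockout 2 and 11 without wild type 1. The cause was not tested. The seed covariate averaged 3.49 in knockout and 3.50 in wild-type libraries (mean log2 level). It could therefore hardly move the differences and does not test the part of seed content in them, but it can change their SE. With it the SE of Solyc03g096730 went from 0.40 to 0.27 (limma adjusted p = 0.103). Among the 9 genes the SE fell for GME1 and GPP2 and rose for the others. The filter was not repeated when libraries were left out, and keeping Solyc03g096730 was added after seeing the data. No paired analysis was possible because the columns carry no number that links a knockout library to a wild-type library. Depth is unknown, and 3 libraries a genotype limit what can be called.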
